A study of Homo sapiens with 38 samples.

Results

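The synaptic vesicle fusion machinery was followed, as 8 genes, through all libraries of a study of USP7, BCOR and p53 in SH-SY5Y cells: SNAP25, SYT1, STX1A, VAMP2, CPLX1, CPLX2, UNC13A and RPH3A. They were taken by name, as 8 of the 15378 genes in the table of the first experiment and of the 14820 genes in the table of the heterozygote experiment. The choice was made with earlier results of these data known, so counts of members beside shares of all genes are descriptive. All 8 were present in both tables, and all 8 passed the filter on low values, which asked for a mean of 5 or more normalized counts across the libraries of a table. SH-SY5Y is a human neuroblastoma line of the sympathetic nervous lineage that grows neurites in retinoic acid.

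Polyadenylated RNA had been sequenced in 38 libraries. In the first experiment 10 groups of 3 libraries were compared: wild-type cells (WT), p53 knockout cells (p53KO) and cells lacking p53 together with USP7 (p53_USP7_DKO) or with BCOR (p53_BCOR_DKO), each undifferentiated or neural, and wild-type neural cells that had received the solvent DMSO or the USP7 inhibitor FT671. The heterozygote experiment held 4 groups of 2: wild-type and USP7-heterozygous cells (SHY_WT and SHY_USP7_hetero) in both states. Neural cells had been kept in differentiation medium with 10 µM retinoic acid for 10 days. USP7 is a deubiquitinase, and BCOR belongs to a variant Polycomb repressive complex. Both double knockouts lack p53, so USP7 loss and BCOR loss were each read against p53KO and not against wild type. Neither the number of clones behind a genotype nor a dose or duration of FT671 is given in the sources used here. Nothing in the labels ties replicates to separate cultures, so p-values measure the spread between these libraries, which may be technical.

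Fusion of a synaptic vesicle is driven by the SNARE complex, a bundle formed by synaptobrevin on the vesicle (VAMP2) with syntaxin 1A (STX1A) and SNAP-25 (SNAP25) on the plasma membrane. Synaptotagmin 1 (SYT1) is the vesicle's calcium sensor, complexins (CPLX1, CPLX2) clamp and activate the assembled SNAREs, and Munc13-1 (UNC13A) primes vesicles by opening syntaxin. Rabphilin 3A (RPH3A) binds RAB3 on the vesicle together with SNAP-25. These genes are typical of neurons and of neuroendocrine cells.

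Depth was close to even, with 16149022 to 17946790 reads in genes per library. Within groups the lowest correlation of log2 values between libraries was 0.9744, and the third undifferentiated libraries of p53KO and of p53_USP7_DKO stood apart from the other libraries of their groups. The third p53KO library also held skeletal muscle transcripts that the other 29 libraries of that experiment did not: its summed level over the 9 muscle markers in the table was 17020, against 513.9 to 1307 elsewhere. Counts of members called were recomputed without both libraries. Of the noradrenergic neuroblastoma markers all 9 were in the first table, with TH, which makes dopa, at a median of 0.992 across libraries. Although the source is labelled bone marrow, the site from which the line was derived, only 1 of 10 blood markers was in either table. USP7 and BCOR were low in the cells labelled as lacking them: USP7 was at 495 ± 104 normalized counts in undifferentiated p53_USP7_DKO against 3024 ± 47.3 in p53KO (SD, n = 3), and BCOR at 1029.8 ± 31.6 in p53_BCOR_DKO against 3605 ± 320.5. In the heterozygote, undifferentiated USP7 was at 1866 ± 17.3 against 3172 ± 22.5 (SD, n = 2).

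Per kilobase of exon in the GENCODE annotation, SYT1 was the most abundant of the 8 in undifferentiated wild-type cells, at 538 ± 25.7 normalized counts per kb (SD, n = 3, as in all levels of the first experiment). SNAP25 (203 ± 5.93) and VAMP2 (200 ± 8.67) followed and did not differ beyond their spread. RPH3A (77.4 ± 4.54) and STX1A (73.9 ± 3.90) made the next such pair and UNC13A (46.7 ± 1.84) and CPLX2 (45.8 ± 2.87) another, with CPLX1 the lowest at 27.0 ± 2.84. In neural wild-type cells the order per kb was SNAP25 (1232 ± 34.6), SYT1 (727 ± 11.9), CPLX2 (506 ± 15.9), VAMP2 (360.4 ± 18.8), STX1A (310.3 ± 12.1), UNC13A (296 ± 12.3), CPLX1 (166 ± 5.71) and RPH3A (3.31 ± 0.732). STX1A and UNC13A were within their spread of each other there. All other levels below are normalized counts, not divided by length.

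**Figure D1:**
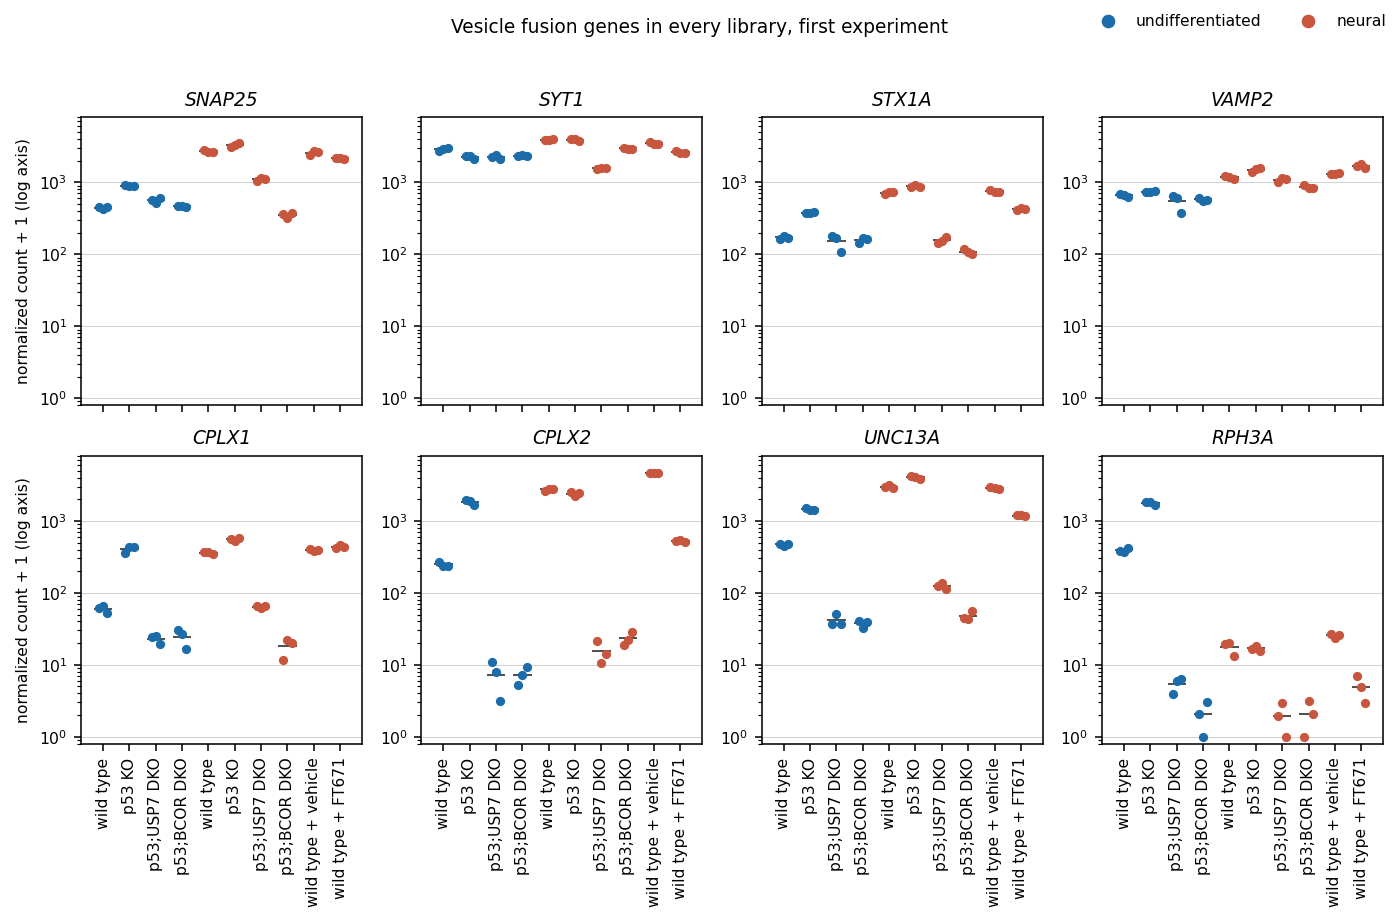
Normalized count + 1 on a log axis for the 8 genes in each of the 30 libraries of the first experiment, with 1 point per library, blue for undifferentiated and red for neural cells, and a line at each group mean. CPLX2, UNC13A and CPLX1 lie lower in both double knockouts than in p53KO, and RPH3A is above 300 in undifferentiated WT and p53KO and below 30 in the other 8 groups.

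Retinoic acid differentiation of wild-type cells raised 7 of the 8 genes and lowered RPH3A. The 8 of 8 called compare with 65.7% of all genes tested (called means an adjusted p below 0.05 in limma over all genes). SNAP25 was at 451, 427 and 447 before and 2761, 2636 and 2626 after differentiation in the 3 libraries of each group. STX1A went from 163, 180.3 and 167 to 683, 726 and 735. VAMP2 went from 679, 658 and 623 to 1227, 1198 and 1109. The 3 SNAREs therefore rose unequally, SNAP25 6.05-fold, STX1A 4.18-fold and VAMP2 1.80-fold. SYT1 rose least, from 2724, 2911 and 2992 to 3916, 3816 and 3934 (log2 0.44 ± 0.05, adjusted p = 2.6e-08). Among all members CPLX2 had the largest rise, from 265, 238 and 239 to 2639, 2804 and 2759 (log2 3.46 ± 0.29, adjusted p = 2.6e-10). Its paralog CPLX1 went from 60.8, 64.1 and 52.1 to 371, 366 and 347, and the priming factor UNC13A from 483, 449 and 478 to 2940.5, 3117 and 2879 (log2 2.66 ± 0.11, adjusted p = 1.9e-18). In the opposite direction, the vesicle protein RPH3A fell from 386, 369 and 414 to 18.3, 19.3 and 12.4 (log2 -4.49 ± 0.40, adjusted p = 8.8e-11). Fold changes are on the log2(normalized count + 1) scale, which understates those of genes with few reads.

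The same 7 genes rose and RPH3A fell in the wild-type cells of the heterozygote experiment, where 8 of 8 were called against 79.3% of all genes. Here RPH3A was at 509.7 and 514 undifferentiated and 13.6 and 6.85 neural, as first and second library of each group in the order of the columns. CPLX2 was at 513 and 530.3 and 2806 and 2776, and SNAP25 at 768 and 708 and 3353 and 3335. Both tables were normalized separately and never fitted together, so only directions are set side by side.

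Differentiation moved the members differently once p53, USP7 or BCOR was missing. In p53KO 6 rose, RPH3A fell and CPLX2 was not called, 7 of 8 against 69% of all genes. CPLX2 there was already at 1962, 1895 and 1653 before differentiation and at 2489.6, 2202 and 2462 after it (log2 0.38 ± 0.29, adjusted p = 0.25, 95% interval -0.23 to 0.98). CPLX2 was called by edgeR and DESeq2 on the reads and when only these groups were fitted (adjusted p = 0.00049, 9.4e-07 and 0.00035). RPH3A fell from 1800.3, 1818 and 1675 to 15.7, 17.5 and 14.6 (log2 -6.70 ± 0.40, adjusted p = 1.8e-14). The rise of CPLX1 in p53KO (log2 0.44 ± 0.18, adjusted p = 0.036) was lost without the first undifferentiated library (adjusted p = 0.13) and without the first and without the third neural library (adjusted p = 0.08 and 0.088).

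In p53_USP7_DKO 5 members rose, 2 fell and STX1A was not called, 7 of 8 against 65.5% of all genes. SNAP25 rose from 567, 522 and 593 to 1033, 1146 and 1121 and VAMP2 from 646, 612 and 371 to 994, 1150.5 and 1118. SYT1, which rose on differentiation of wild-type and p53KO cells, fell here from 2216, 2353 and 2096 to 1527, 1568 and 1582 (log2 -0.51 ± 0.05, adjusted p = 1.9e-09). CPLX1, CPLX2 and UNC13A also rose, from low starting levels: UNC13A was at 36.4, 49.8 and 35.8 before and 122, 137 and 112 after. For CPLX2 the log2 rise of 1.19 became 0.68 without the third undifferentiated library, and when only these groups were fitted it was not called (adjusted p = 0.093). RPH3A held 13 reads over the 3 undifferentiated libraries and 3 reads over the neural ones, a ratio of 4.48 with a 95% interval of 1.23 to 24.5. Such intervals are exact, cover counting error only and treat reads as independent molecules.

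In p53_BCOR_DKO 4 members rose, 3 fell and RPH3A was not called, with 3 reads in each state, 7 of 8 against 57.1% of all genes. SNAP25 fell from 463, 468 and 452 to 366, 322 and 377 (log2 -0.38 ± 0.06, adjusted p = 7.6e-06), STX1A from 141, 167 and 161 to 117, 106 and 98.8 (log2 -0.54 ± 0.12, adjusted p = 0.00042). These 2 plasma membrane SNAREs rose on differentiation in wild-type and p53KO cells. VAMP2 and SYT1 rose by log2 0.58 and 0.34, and CPLX2 rose from 4.18, 6.25 and 8.36 to 17.9, 21.5 and 27.9 (log2 1.71 ± 0.29, adjusted p = 2.3e-05). The fall of CPLX1 (log2 -0.46 ± 0.18, adjusted p = 0.037) was lost with TMM rescaling (adjusted p = 0.087), with edgeR (0.22), with DESeq2 (0.14), with only these groups (0.17) and without the first or second undifferentiated or the first neural library (0.23, 0.14 and 0.43). Without the third undifferentiated library its log2 value was -0.72. The rise of UNC13A (log2 0.35) was lost with DESeq2 (adjusted p = 0.11), with only these groups (0.1) and without the second undifferentiated (0.065) or the third neural library (0.068).

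**Figure D2:**
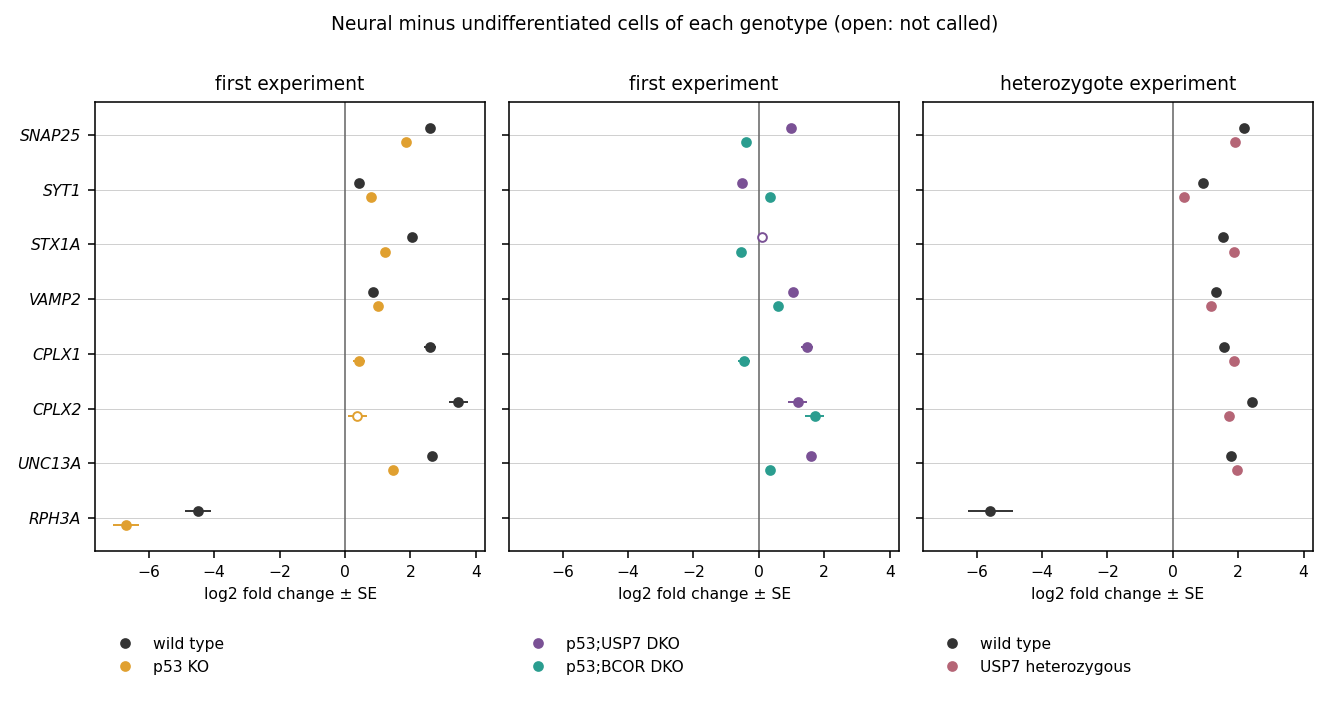
Log2 fold change of neural over undifferentiated cells with its SE for each gene and genotype, filled where called and open where not, in the first experiment (left and middle) and the heterozygote experiment (right). RPH3A points are left out where a group held at most 3 reads, and SNAP25, STX1A and CPLX1 lie below 0 in p53_BCOR_DKO.

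Loss of p53 raised 6 of the 8 genes in undifferentiated cells and lowered SYT1, 7 called of 8 against 22.2% of all genes. The complexins and RPH3A had the largest rises. CPLX2 was at 1962, 1895 and 1653 in p53KO and 265, 238 and 239 in wild type (log2 2.88 ± 0.29, adjusted p = 5.1e-08). CPLX1 was at 360.5, 431 and 431 and 60.8, 64.1 and 52.1 (log2 2.77 ± 0.18, adjusted p = 2.7e-12), and RPH3A at 1800.3, 1818 and 1675 and 386, 369 and 414 (log2 2.18 ± 0.40, adjusted p = 0.00015). UNC13A, STX1A and SNAP25 rose 3.07-, 2.21- and 2.03-fold, SYT1 fell 1.29-fold and VAMP2 was not called (log2 0.18 ± 0.12, adjusted p = 0.31). The count stayed at 7 without both libraries that stood apart, the one with muscle transcripts included.

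In neural cells p53 loss raised 4 members and lowered none, 4 of 8 against 29.8% of all genes. UNC13A was at 4149, 4063 and 3827 against 2940.5, 3117 and 2879 in wild type, and CPLX1 at 565, 519 and 575 against 371, 366 and 347. SNAP25 rose by log2 0.30 and VAMP2 by log2 0.34. VAMP2 was not called without the second or the third wild-type library, or the second or the third p53KO library (adjusted p = 0.054, 0.11, 0.073 and 0.093). STX1A (log2 0.30 ± 0.12, adjusted p = 0.06) and CPLX2 (log2 -0.20 ± 0.29, adjusted p = 0.67) were not called in the shared fit but were with edgeR on reads (adjusted p = 0.026 and 0.043). For SYT1 and RPH3A the groups overlapped, with 95% intervals of the log2 difference of -0.11 to 0.10 and -0.85 to 0.78.

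Whether p53 loss acted alike before and after differentiation was tested as an interaction, which was called for 7 of 8 members, against 18.1% of all genes. CPLX2 had the largest interaction (log2 -3.08 ± 0.41, adjusted p = 7.1e-06), that is, a smaller p53 effect in neural than in undifferentiated cells, followed by RPH3A (log2 -2.22 ± 0.56, adjusted p = 0.0057) and CPLX1 (log2 -2.16 ± 0.26, adjusted p = 6.2e-07). SYT1 alone among the called members had a positive interaction (log2 0.36).

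Loss of USP7 in p53KO cells lowered 7 of 8 members in undifferentiated cells, against 57.3% of all genes called, and all 8 in neural cells, against 63.7%. Loss of BCOR also lowered 7 of 8 undifferentiated, against 69.4%, and all 8 neural, against 62.3%. The called members include RPH3A, which held 3 reads in some of these groups. No member rose in any of these 4 comparisons, while over all genes the shares that rose and fell were 28.9% and 28.4% for USP7 loss in undifferentiated cells and 29.4% and 32.9% for BCOR loss in neural cells. The median log2 fold change of the 8 members was -2.75 and -2.80 for USP7 loss and -2.68 and -3.20 for BCOR loss, undifferentiated and neural, beside medians over all genes of 0.02 or nearer to 0. USP7 and BCOR loss share the p53KO libraries as control. BCOR itself was at 2346 ± 448 in undifferentiated p53_USP7_DKO and 2464 ± 127 in neural, against 3605 ± 320.5 and 4255 ± 161 in p53KO, with no overlap between the groups in either state, and its part in the effect of USP7 loss was not tested. Without both libraries that stood apart the count for USP7 loss undifferentiated was again 7.

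**Figure D3:**
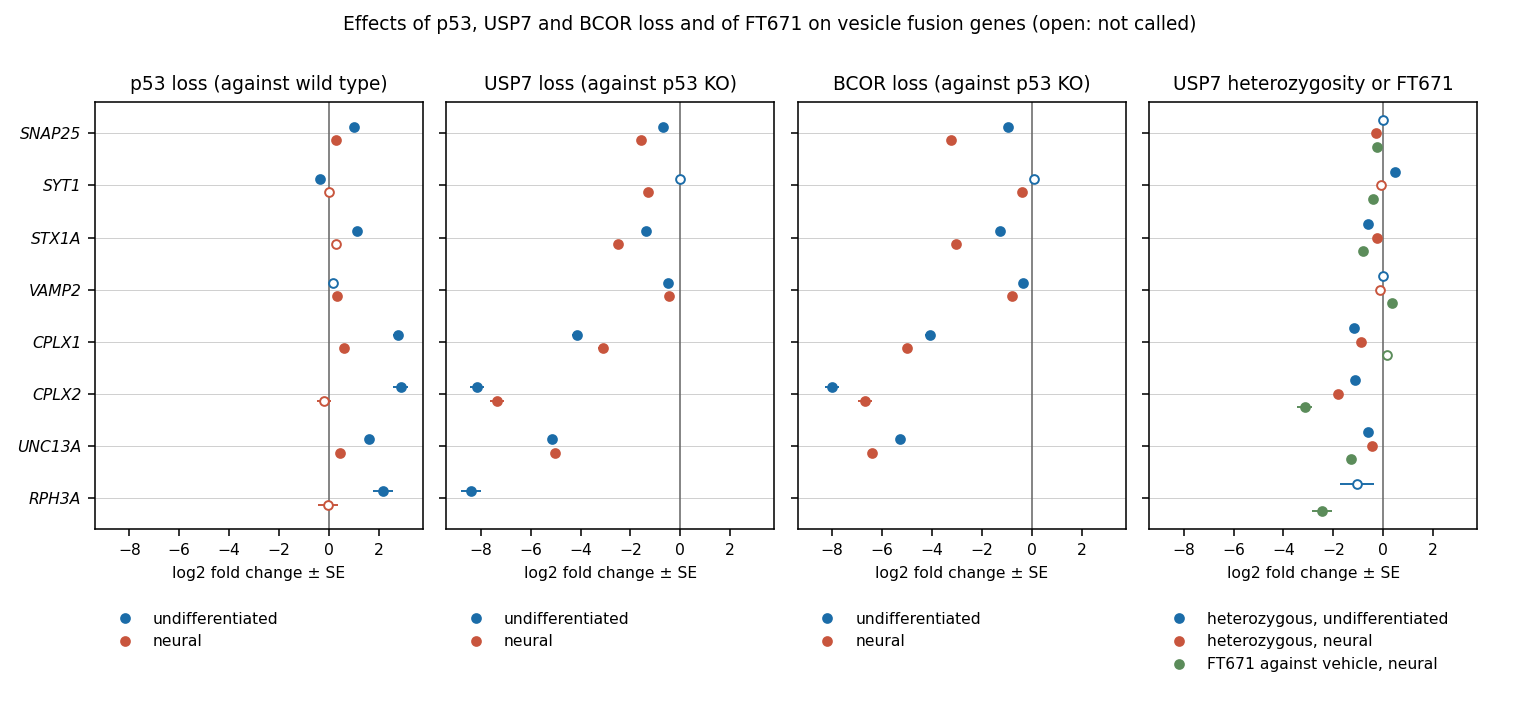
Log2 fold change with its SE of each gene for p53 loss, USP7 loss, BCOR loss, USP7 heterozygosity and FT671, by state, filled where called and open where not. CPLX2 and UNC13A lie lowest of the genes drawn for USP7 and BCOR loss in neural cells, and RPH3A is left out where a group held at most 3 reads.

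Against p53KO, all 3 SNAREs fell with the loss of USP7 and of BCOR in both states. Undifferentiated SNAP25 was at 924, 891 and 873 in p53KO, 567, 522 and 593 in p53_USP7_DKO and 463, 468 and 452 in p53_BCOR_DKO. Neural SNAP25 was at 3117, 3334 and 3462, 1033, 1146 and 1121 and 366, 322 and 377 in the same order of genotypes. The groups did not overlap, and the fall in neural cells was 3.00-fold with USP7 loss and 9.30-fold with BCOR loss. STX1A was at 860.4, 914 and 871 in neural p53KO, 143, 153 and 174 in p53_USP7_DKO and 117, 106 and 98.8 in p53_BCOR_DKO, falls of 5.61- and 8.16-fold. Undifferentiated STX1A was at 377 ± 8.87 in p53KO, 150 ± 39.6 in p53_USP7_DKO and 156 ± 13.5 in p53_BCOR_DKO. In undifferentiated wild-type cells SNAP25 was at 441 ± 12.9 and STX1A at 170 ± 8.99, both lower than in p53KO. The double knockouts were not tested against wild type. VAMP2 fell by log2 0.46 with USP7 loss and 0.79 with BCOR loss in neural cells. In undifferentiated cells the fall of VAMP2 with USP7 loss (log2 -0.49 ± 0.12, adjusted p = 0.00089) leaned on the third p53_USP7_DKO library, the lowest of 646, 612 and 371: without it the log2 value was -0.23, and with only these groups fitted it was not called (adjusted p = 0.12).

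SYT1, the calcium sensor, was the member not called in the undifferentiated double knockouts. It was at 2287, 2298 and 2089 in p53KO, 2216, 2353 and 2096 in p53_USP7_DKO and 2319, 2367 and 2325 in p53_BCOR_DKO, with 95% intervals of the log2 difference of -0.11 to 0.10 and -0.03 to 0.18. In neural cells it fell, from 3956, 3978 and 3694 in p53KO to 1527, 1568 and 1582 with USP7 loss (log2 -1.31 ± 0.05, adjusted p = 1.8e-18) and to 3023, 2904 and 2919.8 with BCOR loss (log2 -0.39 ± 0.05, adjusted p = 1.7e-07).

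Both complexins were low in the double knockouts. CPLX2 was at 9.85, 6.83 and 2.17 in undifferentiated p53_USP7_DKO and 4.18, 6.25 and 8.36 in p53_BCOR_DKO, 19 and 18 reads in all, against 1962, 1895 and 1653 in p53KO. Those are falls of 284- and 260-fold (log2 -8.15 ± 0.29, adjusted p = 7.3e-17 and log2 -8.02 ± 0.29, adjusted p = 3.2e-17). Differentiation left CPLX2 low, at 20.3, 9.76 and 13.0 and 17.9, 21.5 and 27.9 against 2489.6, 2202 and 2462. CPLX1 was at 23.6, 24.4 and 18.4 and 29.3, 26.0 and 15.7 in the undifferentiated double knockouts, falls of 17.7- and 17.0-fold from p53KO. In undifferentiated wild-type cells CPLX2 was at 247 ± 15.5 and CPLX1 at 59.0 ± 6.19, both lower than in p53KO. In neural cells CPLX1 was at 64.7, 61.5 and 63.8 with USP7 loss and 10.6, 21.5 and 19.3 with BCOR loss, beside 565, 519 and 575. Its fall with USP7 loss was smaller in neural than in undifferentiated cells and its fall with BCOR loss larger (interactions log2 1.04 ± 0.26, adjusted p = 0.002 and log2 -0.90 ± 0.26, adjusted p = 0.004).

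The priming factor UNC13A fell in all 3 libraries of each double knockout and state. It was at 36.4, 49.8 and 35.8 in undifferentiated p53_USP7_DKO and 39.7, 31.3 and 38.7 in p53_BCOR_DKO, against 1486, 1409 and 1436 in p53KO. The falls were 35.1-fold (log2 -5.13 ± 0.11, adjusted p = 3.8e-24) and 38.7-fold (log2 -5.27 ± 0.11, adjusted p = 4e-25). Undifferentiated wild-type cells were at 470 ± 18.5. In neural cells UNC13A stood at 122, 137 and 112 and 44.3, 41.8 and 54.8 against 4149, 4063 and 3827, falls of 32.4- and 84.2-fold.

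RPH3A, which was highest of all groups in undifferentiated p53KO, was close to absent from the double knockouts. Its undifferentiated levels were 1800.3, 1818 and 1675 in p53KO and 2.96, 4.88 and 5.42 in p53_USP7_DKO (log2 -8.38 ± 0.40, adjusted p = 3.5e-16). In p53_BCOR_DKO it was at 1.04, 0 and 2.09, 3 reads in all beside 5158 in p53KO, a ratio of 1690 with an exact 95% interval of 578 to 8200. In neural cells, where p53KO held 49 reads, p53_USP7_DKO and p53_BCOR_DKO held 3 each, with ratios of 16.3 (95% interval 5.26 to 81.8) and 15.0 (4.83 to 75.0).

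USP7 loss and BCOR loss were also set against each other. In undifferentiated cells SNAP25 and RPH3A were called, 2 of 8 against 65.2% of all genes. SNAP25 was higher with USP7 loss (log2 0.28 ± 0.06, adjusted p = 0.0003) and was not called when only these groups were fitted (adjusted p = 0.051). RPH3A held 13 reads with USP7 loss and 3 with BCOR loss, a ratio of 4.2 (exact 95% interval 1.16 to 23.0). For CPLX2, CPLX1 and UNC13A the groups overlapped, with 95% intervals of the log2 difference of -0.73 to 0.48, -0.44 to 0.32 and -0.07 to 0.36. VAMP2 (log2 -0.13 ± 0.12, adjusted p = 0.32) was called only without the first p53_USP7_DKO library (adjusted p = 0.032) among the settings tried.

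In neural cells 6 of 8 were called, against 60.9% of all genes, 5 higher with USP7 loss and SYT1 lower. CPLX1 (log2 1.89 ± 0.18, adjusted p = 8.3e-10), SNAP25 (log2 1.63 ± 0.06, adjusted p = 1.5e-18), UNC13A (log2 1.38 ± 0.11, adjusted p = 5.2e-12) and STX1A (log2 0.54 ± 0.12, adjusted p = 0.00035) were higher in p53_USP7_DKO than in p53_BCOR_DKO. SYT1 was lower (log2 -0.92 ± 0.05, adjusted p = 7.1e-15). TMM rescaling moved the median of all genes in this comparison by log2 -0.10. VAMP2 (log2 0.33 ± 0.12, adjusted p = 0.017) was not called after TMM rescaling (adjusted p = 0.075), with edgeR (0.058) or without the second or the third p53_USP7_DKO or the second p53_BCOR_DKO library (0.067, 0.051 and 0.056). CPLX2 (log2 -0.65 ± 0.29, adjusted p = 0.059) became called with 5 added before the log, TMM rescaling, edgeR, DESeq2 or without the first library of either group, at adjusted p between 0.014 and 0.048.

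As interactions with differentiation, the effect of USP7 loss differed between the states for 5 of 8 members, against 42.1% of all genes, and that of BCOR loss for 8 of 8, against 63.8%. USP7 loss took more from SYT1 (log2 -1.31 ± 0.07, adjusted p = 2.8e-14), STX1A (log2 -1.13 ± 0.17, adjusted p = 4.6e-06) and SNAP25 (log2 -0.91 ± 0.09, adjusted p = 2.1e-09) in neural than in undifferentiated cells. BCOR loss did so for SNAP25 (log2 -2.26 ± 0.09, adjusted p = 5.6e-18), STX1A (log2 -1.76 ± 0.17, adjusted p = 9.6e-10) and UNC13A (log2 -1.12 ± 0.15, adjusted p = 2.5e-07), and took less from CPLX2 (log2 1.33 ± 0.41, adjusted p = 0.0074). CPLX2 was not called in the interaction with USP7 loss (adjusted p = 0.12) and was without the first undifferentiated p53_USP7_DKO library (adjusted p = 0.013). The VAMP2 interaction with USP7 loss (log2 0.03 ± 0.17, adjusted p = 0.91) changed direction and was called without the third undifferentiated p53_USP7_DKO library (log2 -0.23, adjusted p = 0.033). The VAMP2 interaction with BCOR loss (log2 -0.44 ± 0.17, adjusted p = 0.024) was not called after TMM rescaling (adjusted p = 0.06), which moved the median of all genes by log2 0.10. It was also lost without the third neural p53KO, first undifferentiated or second neural p53_BCOR_DKO library (adjusted p = 0.052, 0.055 and 0.051).

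FT671, given to wild-type cells, lowered 6 of 8 members in neural cells and raised VAMP2, 7 of 8 called against 65.1% of all genes. CPLX2 fell most, from 4684, 4633 and 4597 with vehicle to 519, 546 and 503 with FT671 (log2 -3.15 ± 0.29, adjusted p = 1.5e-09). RPH3A, already low, went from 26.2, 22.5 and 25.0 to 5.90, 3.98 and 1.97 (log2 -2.45 ± 0.40, adjusted p = 4.8e-06). UNC13A went from 2994, 2826 and 2785 to 1199, 1197 and 1154 (log2 -1.28 ± 0.11, adjusted p = 2.3e-11). The falls of the others were smaller, 1.77-fold for STX1A, 1.33-fold for SYT1 and 1.18-fold for SNAP25. CPLX1, which fell 8.61-fold with USP7 loss in neural cells, was at 401, 379.6 and 388 with vehicle and 420, 459 and 437 with FT671 and was not called (log2 0.17 ± 0.18, adjusted p = 0.43). With only these groups fitted CPLX1 was called, as higher (adjusted p = 0.017). VAMP2 was at 1297, 1306 and 1355 with vehicle and 1676, 1776 and 1582 with FT671 (log2 0.35 ± 0.12, adjusted p = 0.012), and leaving out the second FT671 library brought its adjusted p to 0.05. Whether the inhibitor and the knockout differ was not tested, since they were applied to cells with and without p53.

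For vehicle alone none of the 8 was called in the shared limma fit, against 8.7% of all genes, but other fits called some of them. The groups of 5 members did not overlap, but how often this held over all genes was not computed. CPLX2 was at 4684, 4633 and 4597 with vehicle and 2639, 2804 and 2759 in untreated neural cells (log2 0.76 ± 0.29, adjusted p = 0.11). At an unadjusted p below 0.05 there were 2 members, SYT1 and CPLX2, and edgeR and DESeq2 each called those 2 (CPLX2 adjusted p = 5.5e-07 and 6e-24, SYT1 0.021 and 0.017). No share over all genes is set beside these counts of 2, so they are not read against a background. The control for FT671 therefore held 1.70 times the CPLX2 of untreated cells.

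In cells heterozygous for USP7 the complexins, UNC13A and STX1A fell in both states. In undifferentiated cells 4 members were lower and SYT1 was higher, 5 of 8 called against 25.4% of all genes, and in neural cells 5 were lower and none higher, 5 of 8 against 21.3%. CPLX2 was at 234 and 245 in the undifferentiated heterozygote and 513 and 530.3 in wild type (log2 -1.12 ± 0.06, adjusted p = 4.1e-12). Its neural levels were 821 and 748 and 2806 and 2776 (log2 -1.83 ± 0.06, adjusted p = 5.2e-16). CPLX1 was at 50.5 and 53.2 against 125 and 114 undifferentiated and 179.5 and 202 against 354 and 355 neural. In none of these pairs did the libraries overlap, a weak criterion with 2 libraries per group. UNC13A fell 1.54-fold undifferentiated and 1.38-fold neural. STX1A fell 1.51-fold and 1.20-fold, the neural call being lost without the first library of either group (adjusted p = 0.054 and 0.066). SNAP25 fell in neural cells (log2 -0.31 ± 0.05, adjusted p = 7.4e-05) and was not called in undifferentiated ones (log2 -0.02 ± 0.05, adjusted p = 0.82). Leaving out a library in this experiment leaves a group of 1, which is then assumed to vary like the other groups. SYT1 was higher in the undifferentiated heterozygote, at 2852 and 3151 against 2166 and 2129 (log2 0.48 ± 0.05, adjusted p = 3.4e-08).

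RPH3A was at 258 and 239.9 in the undifferentiated heterozygote and 509.7 and 514 in wild type. This was not called (log2 -1.04 ± 0.68, adjusted p = 0.35), but was with 5 added before the log, edgeR, DESeq2 or only these groups fitted, at adjusted p between 2.1e-10 and 0.00094. Neural heterozygous cells held 3 reads of RPH3A and wild-type cells 21, a ratio of 6.96 (exact 95% interval 2.08 to 36.4). That difference was not called (adjusted p = 0.066) but was with 5 added (adjusted p = 0.00013), edgeR (0.0032), DESeq2 (0.018) or only these groups fitted (0.0059). It was also called with the first or the second heterozygous library left out (adjusted p = 0.0017 and 8.8e-08), the second of these resting on 1 library with 0 reads of RPH3A.

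On differentiation of the heterozygote 7 members rose and RPH3A fell, 8 of 8 against 76.4% of all genes. RPH3A went from 494 reads to 3, a ratio of 169 (exact 95% interval 57.4 to 822). CPLX2 rose 3.27-fold, against 5.34-fold in the wild type of that experiment. The interaction was called for 4 of 8 members, against 16.2% of all genes: CPLX2 (log2 -0.71 ± 0.09, adjusted p = 4.5e-06), SYT1 (log2 -0.58 ± 0.07, adjusted p = 1e-06), SNAP25 (log2 -0.29 ± 0.07, adjusted p = 0.0071) and STX1A (log2 0.33 ± 0.10, adjusted p = 0.023). SNAP25 was not called without the second undifferentiated wild-type library (adjusted p = 0.054). STX1A was lost with DESeq2 (adjusted p = 0.16) and without any of 5 libraries in turn, the first undifferentiated and second neural wild-type and the second undifferentiated and both neural heterozygous ones, at adjusted p between 0.063 and 0.075. RPH3A, not called in this interaction (adjusted p = 0.42), was called without the second neural heterozygous library (adjusted p = 0.00024), which leaves that group 1 library, with 0 reads of the gene, assumed to vary like the other groups.

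**Figure D4:**
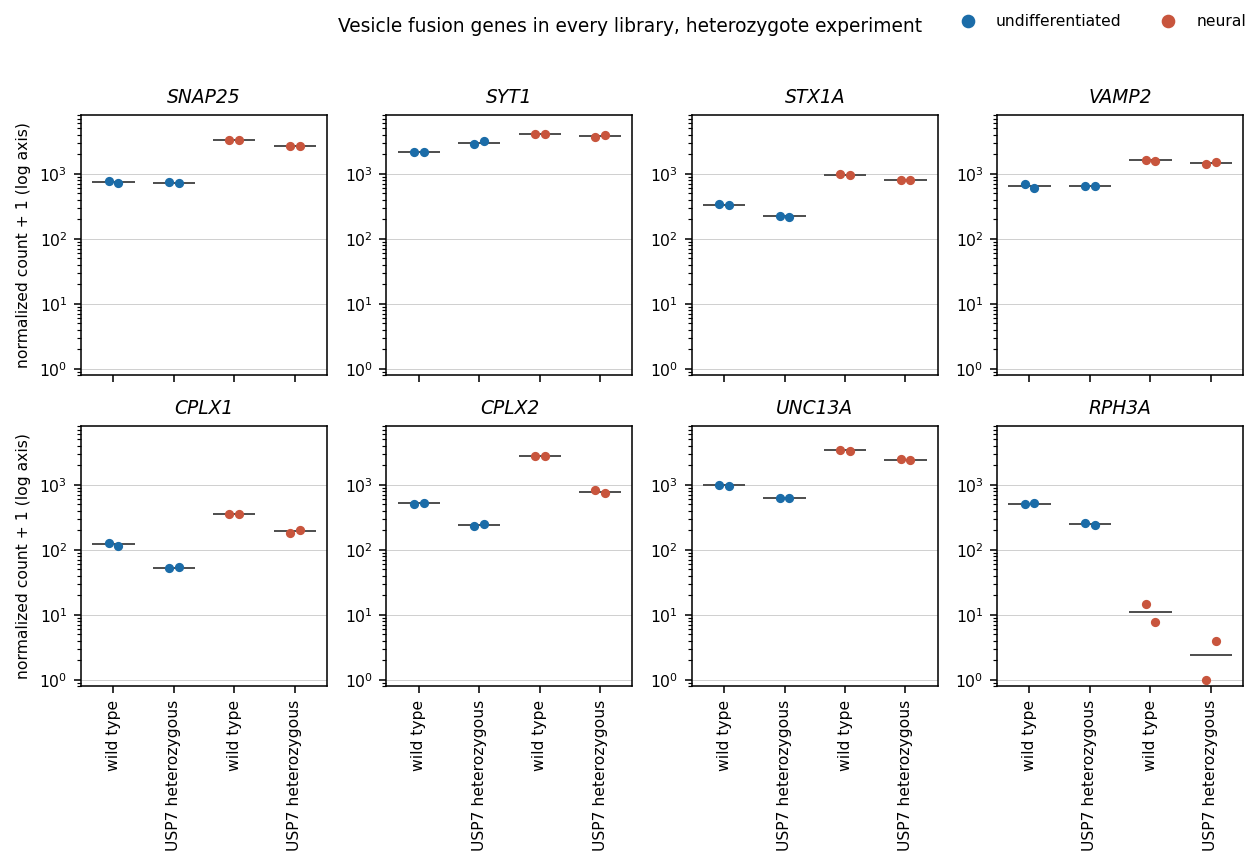
Normalized count + 1 on a log axis for the 8 genes in each of the 8 libraries of the heterozygote experiment, blue for undifferentiated and red for neural cells, with a line at each mean of 2. CPLX1, CPLX2, UNC13A and STX1A lie lower in the heterozygote in both states, and RPH3A falls to 0 and 2.90 in its neural libraries.

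Promoters of the genes that fell most are printed here beside that of VAMP2, which fell least with USP7 loss in neural cells. RefSeq sequences of the GRCh38.p14 build, each with 250 bases before and 50 after the start, were found for 6 of the 8 genes, with 9 promoters in all; SNAP25 and CPLX1 had no entry. Capitals mark, in RPH3A, the RE1 site, the element bound by the repressor of neuronal genes REST, with 2 mismatches on the reverse strand. In UNC13A they mark both parts of that element, and in VAMP2 the 5 GC boxes; the 2 GC boxes and the E-box of UNC13A and the GC box of RPH3A are in lower case. CPLX2 held none of the motifs searched and has no capitals.
RPH3A, chr12:112791498-112791797 (+): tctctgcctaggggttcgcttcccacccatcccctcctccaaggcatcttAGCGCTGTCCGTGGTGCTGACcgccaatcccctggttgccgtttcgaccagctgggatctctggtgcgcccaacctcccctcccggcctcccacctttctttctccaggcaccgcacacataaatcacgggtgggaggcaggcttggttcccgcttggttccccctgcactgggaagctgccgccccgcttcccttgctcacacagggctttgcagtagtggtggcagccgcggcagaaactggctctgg
UNC13A, chr19:17688305-17688604 (-): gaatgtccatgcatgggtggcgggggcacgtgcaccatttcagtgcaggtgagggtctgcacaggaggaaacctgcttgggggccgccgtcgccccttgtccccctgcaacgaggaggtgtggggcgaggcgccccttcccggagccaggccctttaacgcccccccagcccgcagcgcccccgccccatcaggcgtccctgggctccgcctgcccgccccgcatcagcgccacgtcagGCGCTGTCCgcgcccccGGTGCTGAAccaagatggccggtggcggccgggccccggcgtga
CPLX2, chr5:175796283-175796582 (+): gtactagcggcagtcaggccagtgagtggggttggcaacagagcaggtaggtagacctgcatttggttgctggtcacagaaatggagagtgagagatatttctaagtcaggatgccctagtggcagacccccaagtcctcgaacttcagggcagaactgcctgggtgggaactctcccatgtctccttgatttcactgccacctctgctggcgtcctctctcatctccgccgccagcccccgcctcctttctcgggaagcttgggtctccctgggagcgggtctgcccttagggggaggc
VAMP2, chr17:8162827-8163126 (-): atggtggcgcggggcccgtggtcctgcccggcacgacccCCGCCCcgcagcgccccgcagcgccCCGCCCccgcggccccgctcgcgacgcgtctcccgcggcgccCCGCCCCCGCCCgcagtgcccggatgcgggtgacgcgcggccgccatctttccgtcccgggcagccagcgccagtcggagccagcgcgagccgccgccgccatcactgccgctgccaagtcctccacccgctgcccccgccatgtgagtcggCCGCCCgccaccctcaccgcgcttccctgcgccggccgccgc
The motifs were the RE1 consensus of 21 bases with up to 4 mismatches, the GC box GGGCGG, the E-box CACGTG and a retinoic acid receptor repeat of AGGTCA spaced by 5 bases with up to 2 mismatches, each on both strands. RE1 matches stood in 0.769% of 35116 promoters, retinoic acid receptor repeats in 2.47%, GC boxes in 45.0% and E-boxes in 7.26%. The RPH3A site lay at bases 51 to 71 of the window and also fell in an overlapping alternative promoter, chr12:112791288-112791587, while the third RPH3A promoter held no match. In UNC13A the parts TTCAGCACC and GGACAGNGC both stood exactly, 8 bases apart where the consensus has 2, at bases 240 to 265, across the start; the RE1 search as such matched there with 4 mismatches. Parts spaced by 7 to 9 bases with up to 2 mismatches in all stood in 0.0883% of promoters, a search added after this promoter had been read. VAMP2 had 51 CG dinucleotides and 81.7% G or C, STX1A 37 and 79.3%, UNC13A 28 and 73.0%, SYT1 15 and 62.0%, the RPH3A promoter printed 15 and 63.7% and CPLX2 8 and 59.0%, against medians of 14 and 58.7% over all promoters. The other RPH3A promoters had 13 and 63.0%, and 9 and 55.3% in the overlapping window, and the second VAMP2 promoter 47 and 80.7%. A match is a description of the letters and was not tied to any factor's binding in these cells.

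Across the 30 libraries of the first experiment CPLX2 and UNC13A had the highest Pearson correlation of log2 levels among the 28 pairs of members, 0.97, and VAMP2 and RPH3A the lowest, -0.14. CPLX1 correlated with UNC13A at 0.96 and with CPLX2 at 0.91, and SNAP25 with STX1A at 0.92. SYT1 correlated with no member above 0.67. These values describe libraries of 10 groups that share their genotypes and states. Over 11604 genes with a mean of at least 100, the pattern nearest to UNC13A was that of UNC79 (0.989) and then MMP24 (0.988), and nearest to CPLX2 were XKR7 (0.984) and PHF21B (0.981). CPLX1 was nearest to GOLGA7B (0.984) and JPH3 (0.975), STX1A to PARP6 (0.981) and ALK (0.98), and SNAP25 to APC2 (0.968) and UNC80 (0.964). VAMP2 was nearest to AC090114.2 (0.97) and TAB3 (0.955), RPH3A to BRI3BP (0.936) and NUP50 (0.924), and SYT1 to MAML3 (0.914) and IGSF3 (0.909).

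Other genes of the pathway were read in lists that leave out the 8 members and were also chosen with earlier results known. Of 30 SNARE paralogs and regulators 24 were tested, and of these 8 rose, 8 fell and 8 were not called with USP7 loss and 9 rose, 10 fell and 5 were not called with BCOR loss in neural cells. Over all genes 30.7% and 33% rose and fell with USP7 loss and 29.4% and 32.9% with BCOR loss, so the called share of this list with USP7 loss is near that of all genes. NAPB, the neuronal SNAP that helps to take spent SNARE complexes apart, fell with USP7 loss (log2 -1.55 ± 0.07) and with BCOR loss (log2 -1.77 ± 0.07). SNAP23, the widely expressed relative of SNAP25, moved the other way: it rose with USP7 loss (log2 1.55 ± 0.12) and BCOR loss (log2 1.61 ± 0.12) and fell on wild-type differentiation (log2 -1.38 ± 0.12). STX3 fell with USP7 loss (log2 -1.39 ± 0.08) and rose with BCOR loss (log2 1.63 ± 0.08). STXBP5L, a tomosyn that binds syntaxin, fell with BCOR loss (log2 -5.02 ± 0.14). In undifferentiated cells, where 7 of 8 members fell, 11 of these 24 rose and 5 fell with USP7 loss (median log2 0.18). With BCOR loss 13 rose and 4 fell there (median log2 0.31). Over all genes 28.9% rose and 28.4% fell with USP7 loss in that state, and 35.6% and 33.7% with BCOR loss.

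Of 37 calcium sensors and priming factors 33 were tested. In undifferentiated cells p53 loss raised 20 and lowered none, where 12.2% of all genes rose and 10.1% fell, with a median log2 fold change of 0.47 beside a median over all genes within 0.01 of 0. With USP7 loss in neural cells 7 rose, 20 fell and 6 were not called, and with BCOR loss 5 rose, 27 fell and 1 was not called, with medians of -0.76 and -1.55. The shares of all genes that rose and fell in these comparisons were those just given, 30.7% and 33% and 29.4% and 32.9%. RIMS4, a relative of the active zone scaffold RIM, fell with USP7 loss (log2 -3.85 ± 0.13) and BCOR loss (log2 -6.02 ± 0.13). RAB3C, of the RAB3 family that RPH3A binds, rose on wild-type differentiation (log2 2.65 ± 0.09) and fell with BCOR loss (log2 -4.03 ± 0.09). SYT11, a synaptotagmin that does not sense calcium, fell with USP7 loss (log2 -2.25 ± 0.05) and with FT671 (log2 -1.49 ± 0.05). RAB27A, which docks secretory granules, rose with USP7 loss (log2 1.28 ± 0.10), BCOR loss (log2 0.82 ± 0.10) and FT671 (log2 2.31 ± 0.10).

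Of 41 vesicle and active zone genes 32 were tested, and in neural cells 5 rose, 21 fell and 6 were not called with USP7 loss and 4 rose, 27 fell and 1 was not called with BCOR loss, with medians of -0.68 and -1.63. Beside them stand 30.7% and 33% of all genes higher and lower with USP7 loss and 29.4% and 32.9% with BCOR loss. The vesicle membrane protein SYP fell with USP7 loss (log2 -3.09 ± 0.12), and SV2C, another vesicle membrane protein, with BCOR loss (log2 -4.22 ± 0.13). BSN, the active zone scaffold bassoon, fell with BCOR loss (log2 -3.76 ± 0.11). With FT671 15 rose, 11 fell and 6 were not called, where 33% and 32.1% of all genes rose and fell. The vesicular acetylcholine transporter SLC18A3 fell with FT671 (log2 -1.97 ± 0.10) and the monoamine transporter SLC18A2 rose (log2 3.15 ± 0.11). In the neural heterozygote 4 rose, 8 fell and 16 were not called, of 28 tested, where 9.56% and 11.7% of all genes rose and fell.

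Summed levels of cell state markers also differed between groups, and not always in step with the members. The summed level of the 10 mesenchymal markers was 19320 to 19650 in neural p53KO, 76350 to 81190 in p53_USP7_DKO and 174300 to 177400 in p53_BCOR_DKO. That of the 9 noradrenergic markers was 88050 to 96410, 21260 to 23970 and 34560 to 39300. In undifferentiated cells, in the same order of genotypes, the mesenchymal sum was 43950 to 52940, 81100 to 92380 and 131100 to 135000 and the noradrenergic sum 64000 to 66130, 31360 to 45400 and 49790 to 51790. The noradrenergic sum was 31600 to 34200 with FT671 and 70320 to 72700 with vehicle. In the heterozygote experiment, with 8 of the 9 markers in the table, it was 76390 to 78340 against 87810 to 90810 undifferentiated and 39540 to 40550 against 46010 to 47260 neural. With FT671 the mesenchymal sum was 82790 to 85210 against 42720 to 45990 with vehicle. In the neural heterozygote, over the 9 of 10 markers in that table, it was 72720 to 73300 against 47610 to 50690. Differentiation of wild-type cells raised 7 members in both experiments, but the sums moved differently. The noradrenergic sum went from 61080 to 64460 to 70300 to 74390 in the first experiment and fell in the other, as the values above show. The mesenchymal sum was 63120 to 66670 undifferentiated and 35860 to 43690 neural in the first experiment. In the heterozygote experiment it was 37010 to 37530 and 47610 to 50690. Among the mesenchymal markers PRRX1 was at or near 0, with a median of 0 over the first experiment. Single genes weigh heavily in these sums: in that experiment COL3A1 ranged from 2045 to 129700 and the noradrenergic marker DBH from 212.1 to 48960. A sum therefore need not reflect each of its markers. The sum of the 4 Schwann cell markers in the first table was 313 to 325 with FT671 against 49 to 71 with vehicle. Over the 4 in the heterozygote table it was 133.7 in one and 1140 in the other neural heterozygous library. These 4 were not the same genes: ERBB3, at most 215, was only in the first table, and GFAP, at most 881.3, only in the heterozygote table. The Schwann cell factor SOX10 was in neither. The part of these markers in the results was not tested, and in bulk RNA fewer cells of a type and less RNA per cell cannot be told apart.

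Reads of a few members may be shared with neighbours. BUD23 overlaps STX1A on the opposite strand, with a highest group mean of 2822, and SNAP25-AS1 overlaps SNAP25, with a highest group mean of 37.8. AC129492.3, annotated as protein-coding, overlaps VAMP2 on the same strand and is not analysed here, and reads there cannot be divided by strand. Whether counting used strand is not given in the sources used here, so reads from opposite strands cannot be told apart either.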

How the data were processed

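The 38 libraries held polyadenylated RNA from SH-SY5Y cells. Per the submitters' processing notes the authors used STAR, HTSeq and DESeq2 with the hg19 build, with no versions given. The deposited values are a normalized signal per gene: the read count divided by a size factor, plus 1 in the file, which was subtracted here. All values were whole reads within 0.01 after multiplication by the size factor, which gave 16149022 to 17946790 reads in genes per library. Depth was thus recovered from the values, and intervals from reads cover counting error only.

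Levels were compared with limma 3.58.1 (R 4.3.3, trend and robust) on log2(normalized count + 1), over genes with a mean of at least 5, with 1 model per experiment and 22 comparisons, 4 of them interactions. Benjamini-Hochberg adjustment ran over all genes of a comparison, and an adjusted p below 0.05 was called. Alternatives were 0.5 or 5 added, no filter, TMM rescaling, edgeR 4.0.16 and DESeq2 1.42.0 on the recovered reads, a replicate block, a fit of only the groups compared and leaving out each library. The scripts were tested on simulated data.

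Groups with at most 3 reads of a gene are given as a ratio of reads with an exact 95% interval. Same-numbered libraries deviated together (correlation over 0.1) in 4 of 135 pairs, in all 3 pairs only for USP7 loss in undifferentiated cells (0.112 to 0.226). Negative correlations of that size also occurred, -0.234 and -0.149 between the first and the third undifferentiated and neural p53_USP7_DKO libraries. For the heterozygote experiment, columns were matched by group only. The 6 columns of undifferentiated vehicle or drug cells were not used, having no matching sample.

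Members and lists were chosen with earlier results of these data known. Named were all members, up to 2 called genes per direction, list and comparison by smallest adjusted p with a mean of at least 100, and the 2 genes most like each member. The level of the third targeted gene is not reported here.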

Additional observations from a re-analysis of the deposited data

Results flagged for a closer look

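The results below were picked out because the effect of a genotype differed between undifferentiated and neural cells, by an interaction term called in limma over all genes. A negative value means a lower log2 effect in neural than in undifferentiated cells. No group had 4 or more libraries, so no library was tested as an outlier.

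For p53 loss the interactions were -0.72 for SNAP25, 0.36 for SYT1, -0.84 for STX1A, -2.16 for CPLX1, -3.08 for CPLX2, -1.19 for UNC13A and -2.22 for RPH3A. For USP7 loss they were -0.91 for SNAP25, -1.31 for SYT1, -1.13 for STX1A and 1.04 for CPLX1. For BCOR loss they were -2.26 for SNAP25, -0.47 for SYT1, -1.76 for STX1A, -0.44 for VAMP2, -0.90 for CPLX1, 1.33 for CPLX2 and -1.12 for UNC13A. RPH3A was called in the interactions with USP7 loss (limma adjusted p = 2e-08) and BCOR loss (limma adjusted p = 4.8e-11), where groups of at most 3 reads give no usable fold. For USP7 heterozygosity the interactions were -0.29 for SNAP25, -0.58 for SYT1, 0.33 for STX1A and -0.71 for CPLX2.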

How the results depend on the processing

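Of 2592 fold changes of members recomputed under the alternatives, 2512 stayed on their side of the threshold, 38 of them with a change of sign where neither value was called, while 40 lost a call, 38 gained one and 2 reversed. The reversals were both of the VAMP2 interaction with USP7 loss (log2 0.03), which ranged from -0.23 to 0.17 with each library left out and was -0.24 without both undifferentiated libraries, of p53KO and p53_USP7_DKO, that stood apart, an alternative chosen after seeing the data. The number of members called for USP7 loss minus BCOR loss in undifferentiated cells, 2, became 1 with only the groups compared. For vehicle against untreated cells, 0 became 1 with 5 added, 1 with TMM rescaling, 2 with edgeR, 2 with DESeq2 and 3 with only the groups compared. The replicate block changed no member count (7 for USP7 loss in undifferentiated cells), with 8811 genes called in that comparison against 8798. Fitting only the groups compared called 4831 genes there, 6519 against 10009 for USP7 minus BCOR loss undifferentiated and 3696 against 1336 for vehicle, where leaving out the first untreated or the third vehicle library gave 834 and 802. For heterozygosity DESeq2 called 2172 genes undifferentiated (3768 with limma), 2029 neural (3151) and 1199 for the interaction (2400), and leaving out the first wild-type undifferentiated library gave 2449, and the first heterozygous neural library 1947 and 1538. The cause of these shifts was not tested. Genes at few reads, RPH3A most of all, are limited by depth.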
